A study of Homo sapiens with 4 samples.

Results

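The replication-dependent histone genes were examined as a family in K562 cells with and without hemin. The genes were chosen by name, as every gene whose symbol is H1-1 to H1-6 or H2AC, H2BC, H3C or H4C followed by a number. This gave 66 of the 61498 genes in the deposited tables, of which 6 encode H1, 16 H2A, 17 H2B, 13 H3 and 14 H4. K562 is a human erythroleukaemia line that can be moved toward the erythroid state in culture, and hemin is an iron-bound porphyrin used for that purpose. The study sequenced poly(A) RNA from 2 untreated libraries and from 2 libraries of cells kept for 108 h with hemin at 50 µM. No vehicle and no culture time is named for the untreated cells. Nothing in the labels says that the libraries of a condition came from separate cultures. The p-values below therefore measure only the spread between these libraries, which may be technical.

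These genes supply the bulk of the histone protein that packs newly made DNA. H2A pairs with H2B and H3 with H4 to form the core of the nucleosome, and H1 binds the DNA between cores. They are transcribed in S phase from clusters that hold many near copies. Their main messenger RNA is unusual in having no poly(A) tail: it ends a few bases after a conserved stem-loop that is bound by SLBP, and the cut is made with the help of U7 small nuclear RNA. Some of the genes also make longer, polyadenylated transcripts that run past the stem-loop or splice around it. A library made from poly(A) RNA therefore favours the longer kind, and the values below describe what such libraries held, not the whole pool of histone messenger RNA.

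RSEM, which estimates how many reads came from each gene, assigned 7801824 expected counts to untreated replicate 1 and 7455447 to replicate 2, against 7513843 and 8241534 after hemin. With no count observed, as many as 3 counts remain possible at this depth, which is 0.364 to 0.402 CPM (counts scaled to a common library size) across the libraries, for counting error only. All 9 erythroid markers examined were detected, among them GATA1 at 886 to 931 counts. Of 8 markers of other cell types, EPCAM had 288 to 319 counts, 5 had at most 3 counts in each library and 2 of these had none.

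The stem-loop was found in all 66 genes, in transcripts of the GENCODE 44 annotation, and it matched the GRCh38 genome at all 66. The 16-base form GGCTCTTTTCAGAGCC stood in 38 genes, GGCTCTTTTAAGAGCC in 9, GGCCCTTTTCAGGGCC in 9 and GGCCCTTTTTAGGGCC in 4, and 6 genes each had a form of their own. The forms that open with GGCCC were found in all 14 H4 genes and in no gene of another class. The sites of 8 genes that carry the results below are shown 5′ to 3′ on the strand of the gene, with the stem-loop in capitals, so that the classes can be compared.
H1-2, chr6:26055740-26055764, minus strand: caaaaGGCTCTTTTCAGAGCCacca
H2AC6, chr6:26124664-26124689, plus strand: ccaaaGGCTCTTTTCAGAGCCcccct
H2AC15, chr6:27837880-27837905, minus strand: aaaaaGGTTCTTTTCAGAGCCaccta
H2BC12, chr6:27146361-27146386, minus strand: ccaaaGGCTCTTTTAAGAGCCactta
H3C10, chr6:27810511-27810536, plus strand: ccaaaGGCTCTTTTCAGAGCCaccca
H3C6, chr6:26225591-26225616, plus strand: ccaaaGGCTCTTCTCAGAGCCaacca
H4C8, chr6:26285126-26285151, minus strand: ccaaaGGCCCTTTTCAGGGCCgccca
H4C14, chr1:149833027-149833052, plus strand: ccaaaGGCCCTTTTTAGGGCCgacca

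Most of the family was hardly read. No expected count was given to 11 of the 66 genes in any library, and 26, these 11 included, had at most 3 counts in each library. For 3 of the 11 (H2AC19, H3C14 and H4C11) the zero is uncertain, since each is a near copy of a gene that was read. RSEM's posterior SD, its own uncertainty in dividing shared reads, was above 1 count for these 3. A further 8 exceeded 3 counts somewhere but did not pass edgeR's filter on low counts, the highest being H2BC7 with 21.8 and 8.0 counts in the untreated libraries and 6.0 in each hemin library. The remaining 32 genes were tested, and 17 of these had a mean above 10 TPM (a gene's share of all transcripts, scaled by length so that genes can be compared). Together the 66 genes took 4440 and 4350 counts in the untreated libraries and 4665 and 5079 in the hemin libraries, which is 0.0569% to 0.0621% of a library.

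**Figure D1:**
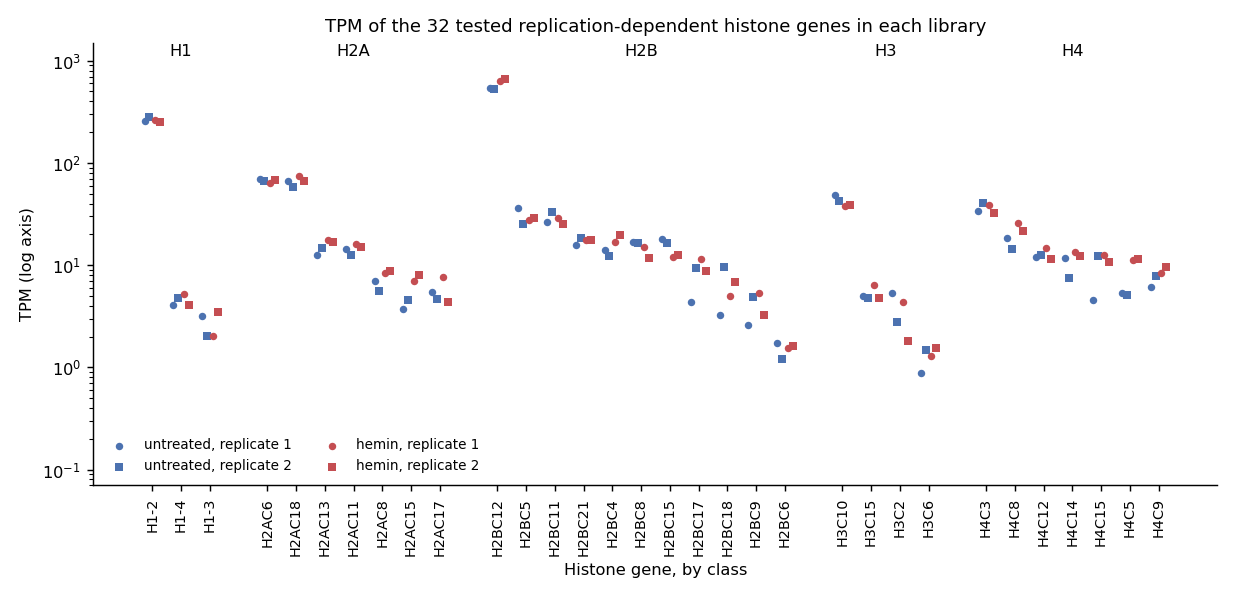
TPM of the 32 tested histone genes on a log axis, grouped by class and ordered by mean TPM, with untreated libraries in blue and hemin libraries in red (circles are replicate 1, squares replicate 2). H2BC12 and H1-2 stand above 100 TPM in every library, and 15 of the genes lie at a mean of 10 TPM or less.

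Expression was carried by few genes. H2BC12, an H2B gene, stood at 536 and 533 TPM in the untreated libraries and at 635 and 655 TPM in the hemin libraries. H1-2, a linker histone gene, followed at 259 and 280 TPM untreated and 265 and 253 TPM with hemin. These were the only members with a mean above 100 TPM. H2BC12 alone gave 30.2% and 29.6% of the family's counts in the untreated libraries and 32.8% and 34.2% in the hemin libraries, and H1-2 gave 22.4% and 23.7%, then 20.9% and 20.1%. The next genes by mean TPM over the 4 libraries were H2AC6 (66.9), H2AC18 (66.6), H3C10 (42.0), H4C3 (36.2), H2BC5 (29.5), H2BC11 (28.4), H4C8 (20.04) and H2BC21 (17.4). The 10 highest genes held 85.8% to 86.5% of the counts in each library.

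The comparison of hemin with untreated cells asks how the family behaved when the cells were driven toward the erythroid state. Of the 32 tested genes, 2 rose and 0 fell when edgeR's quasi-likelihood test was used with Benjamini-Hochberg adjustment over all 14458 genes tested and a threshold of 0.05. Over all tested genes 7.00% rose and 7.14% fell, so the share of the family that rose, 6.25%, was close to the background. At an unadjusted p under 0.05 the same test gave 6 members higher and 1 lower, against 14.8% and 14.6% of all tested genes, and DESeq2 also gave 2 higher and 0 lower after adjustment. The log2 fold change was above 0 in 22 members and below 0 in 10, with a median of 0.12 where that of all tested genes was -0.01. In CPM both hemin libraries lay above both untreated ones for 12 members (28.1% of all tested genes) and below for 3 (29.3% of all tested genes), while 17 overlapped. The filter's level was met in all 4 libraries by 26 of the 32 members, 18 of them above 0 and 8 below, and in both libraries of the hemin condition only by 3 (H2AC15, H2BC17 and H2BC18). With scaling by library size only, the same 2 members rose, and over all genes 729 rose and 1358 fell in place of 1012 and 1033.

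**Figure D2:**
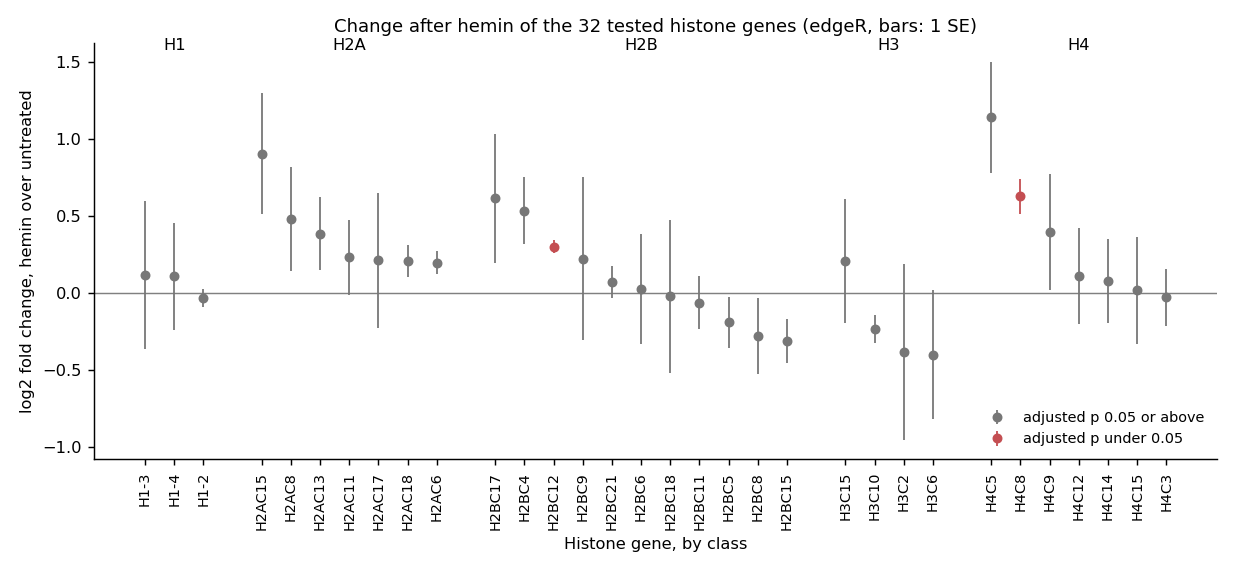
Log2 fold change of hemin over untreated for the 32 tested histone genes by class, with bars of 1 standard error (SE) from edgeR. H2BC12 (0.30) and H4C8 (0.63), in red, passed the threshold, while the bars of the thinly read genes reach an SE of 0.57.

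H2BC12 rose. It lies on chromosome 6 of GRCh38 from 27146361 to 27146855, on the minus strand, and has a single annotated transcript of 495 bases that ends 5 bases past the stem-loop. Its counts were 1343 and 1289 in the untreated libraries and 1531 and 1736 in the hemin libraries, so that both hemin values lay above both untreated ones. It averaged 535 ± 1.82 TPM without and 645 ± 14.3 TPM with hemin (SD, n = 2 each), and the log2 fold change was 0.30 (SE 0.044, edgeR adjusted p = 0.00321). Without any 1 library the value stayed between 0.27 and 0.34 with an edgeR adjusted p of at most 0.0231. On log2(TPM + 1) limma gave 0.27 with an adjusted p of 0.0845, above the threshold.

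H4C8 rose. The gene, one of the many that encode H4, spans chromosome 6 of GRCh38 from 26277609 to 26285638 on the minus strand. Its counts were 140 and 121 untreated and 207 and 199 with hemin, again without overlap. Without hemin it averaged 16.4 ± 2.72 TPM and with hemin 23.7 ± 2.85 TPM (SD, n = 2 each), and the log2 fold change was 0.63 (SE 0.113, edgeR adjusted p = 0.00732). Leaving out each library gave 0.55 to 0.72, with an edgeR adjusted p of up to 0.0478, and limma on log2(TPM + 1) gave 0.52 with an adjusted p of 0.193. H4C8 shares no 50-base stretch, the read length, with another gene, and RSEM's posterior SD of its count was 0. Of its exon bases 13.3% overlap ENSG00000289447 on the opposite strand, which had 9, 5, 7 and 4 counts, and no strand setting is named for the counting, so reads of the 2 genes cannot be told apart there.

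Among the H1 genes, which encode the linker histones, none of the 3 tested passed. H1-2 had 993 and 1033 counts untreated and 976 and 1023 with hemin, so the groups overlapped. Its log2 fold change of -0.03 had an SE of 0.058 (edgeR adjusted p = 0.802). H1-3 had 13 and 8 counts untreated and 8 and 15 with hemin, with a log2 fold change of 0.12 and an SE of 0.482, which leaves its direction undetermined. H1-4 was read by 17 and 19 counts untreated and by 21 and 18 with hemin. H1-1, H1-5 and the testis form H1-6 had at most 3 counts in each library. The log2 fold change of H1-2 turned to 0.04 without untreated replicate 2.

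All 7 tested H2A genes had a log2 fold change above 0, and in 6 of them both hemin libraries lay above both untreated ones in CPM (28.1% of all tested genes did so), but none passed the threshold. Their median was 0.23. H2AC6 had 384 and 363 counts untreated and 393 and 470 with hemin, a log2 fold change of 0.20 (SE 0.075, edgeR adjusted p = 0.108). In TPM the same gene stood at 69.2 and 66.7 untreated and at 63.0 and 68.6 with hemin, so the groups overlapped on that scale and limma on log2(TPM + 1) gave -0.05. The mean transcript length that RSEM assigned to H2AC6 was 1037 and 1055 bases untreated and 1205 and 1203 bases with hemin. H2AC15 had 9.39 and 11.02 counts untreated and 16.8 and 21.2 with hemin, a value of 0.91 (SE 0.394, edgeR adjusted p = 0.162). It met the filter's level of 1.306 CPM in both hemin libraries but in only 1 untreated library, so it would not have been tested on its untreated counts alone. H2AC13, H2AC11, H2AC8 and H2AC17 had log2 fold changes from 0.21 to 0.48 on 11.02 to 45.0 counts.

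Of the 11 tested H2B genes, H2BC12 was the only one to pass, and the others were split, with 5 above 0 and 5 below. H2BC17, another gene that met the filter's level in 1 untreated library, was highest at 0.62 (SE 0.418) on 10.1, 21, 26.2 and 21.7 counts. H2BC15 was lowest. It had 131 and 111 counts untreated and 87.4 and 109 with hemin, a log2 fold change of -0.31 (SE 0.142, edgeR adjusted p = 0.178), and in CPM both hemin libraries were the lower ones. H2BC4 had 44.5 and 36.4 counts untreated and 51.4 and 66.2 with hemin, a log2 fold change of 0.54 (edgeR adjusted p = 0.137). Of the exon bases of H2BC4 63.6% overlap ENSG00000291336 on the opposite strand. With no strand setting named, reads of the 2 genes cannot be told apart there. H2BC5 changed sign with the libraries used: its counts were 128 and 90.9 untreated and 93.0 and 100.03 with hemin, and the log2 fold change of -0.19 became 0.04 without untreated replicate 1. H2BC11 (-0.06, 77.8, 86.8, 84.5 and 75.4 counts) and H2BC21 (0.07, 193, 218, 208 and 227 counts) overlapped between the conditions.

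Of the 4 tested H3 genes, 3 had a log2 fold change below 0, and none passed. H3C10 was the main H3 gene and the member with the smallest p among those below 0, at 264 and 271 counts untreated and 227 and 231 with hemin, without overlap. Its log2 fold change was -0.23 (SE 0.089, unadjusted p = 0.0278 and adjusted p = 0.116 in edgeR's test). With each library left out it stayed between -0.29 and -0.17. H3C6 had 13, 21, 11 and 15 counts and a log2 fold change of -0.40 (SE 0.420), while H3C15 had 13.0, 12, 16.2 and 13.4 counts and 0.21 (SE 0.403). H3C2 was read by 14, 7, 11 and 5 counts. The other 9 H3 genes had between 0 and 12.8 counts in a library and were not tested.

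Besides H4C8, the H4 genes included the largest log2 fold change of the family. H4C5 had 11 and 10 counts untreated and 22 and 25 with hemin, so the groups did not overlap, and its value was 1.14 (SE 0.361, edgeR adjusted p = 0.0645). It passed in 3 alternatives, namely with no count filter (edgeR adjusted p = 0.0472), with the strict filter (0.0232), which it met only through its hemin libraries, and with RSEM's posterior mean counts (0.0358). H4C3, the H4 gene of highest TPM, had 67 and 78 counts untreated and 75 and 68 with hemin, a log2 fold change of -0.03 (SE 0.187). H4C9 (0.40) and H4C12 (0.11) lay above 0 with an edgeR adjusted p of at least 0.537.

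**Figure D3:**
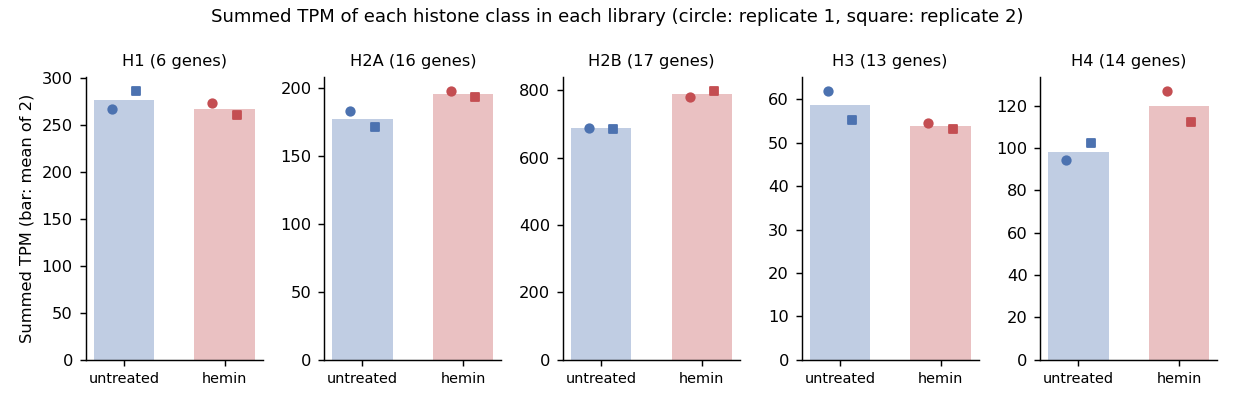
Summed TPM of all genes of each histone class in each library, with bars at the mean of the 2 libraries and every vertical axis starting at 0. The H2A, H2B and H4 sums of both hemin libraries lie above both untreated ones, the H3 sums below, and the H1 sums overlap.

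Summed over a class, which is less touched by how reads were divided between copies, H2B stood at 689 and 687 TPM untreated and 781 and 800 TPM with hemin. H4 stood at 94.2 and 102 TPM untreated and 127 and 112 TPM with hemin, and H2A at 183 and 171 TPM, then 198 and 193 TPM. H1 stood at 267 and 287 TPM untreated and 274 and 261 TPM with hemin, and H3 at 62.0 and 55.3 TPM, then 54.5 and 53.0 TPM. The hemin libraries were thus higher for H2A, H2B and H4 and lower for H3 in these sums, and no test was run on them. The H2B difference rested on H2BC12: without it H2B stood at 153 and 154 TPM untreated and at 147 and 145 TPM with hemin, and its CPM sum was likewise lower with hemin (87.6 and 89.0, then 85.9 and 86.8). Without H4C8 the CPM sum of H4 was 30.5 and 34.8 untreated and 35.7 and 35.4 with hemin, which is a smaller gap in the same direction. The H3 difference rested on H3C10, which stood at 48.5 and 42.7 TPM untreated and at 38.1 and 38.9 TPM with hemin. Without H3C10 the H3 sum was higher with hemin in TPM and overlapped between the conditions in CPM. The ratio of the mean CPM sums, hemin over untreated, was 1.25 for H4, 1.18 for H2A, 1.15 for H2B, 0.986 for H1 and 0.879 for H3. Over the whole family the CPM sum was 559 and 578 untreated and 627 and 627 with hemin. Without H2BC12 it was 390 and 407 untreated and 421 and 413 with hemin, so both hemin libraries remained above in CPM. The ratio of the CPM sums of all genes was itself 1.027. In TPM the family sums without H2BC12 overlapped between the conditions.

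The annotation separates the genes by the end of their transcripts. A transcript that runs over 50 bases past the stem-loop or lacks it is called extended here, and 14 members have at least 1. In 13 of these 14 members an extended transcript carries AATAAA or ATTAAA, the usual poly(A) signals, within its last 60 bases, and 16 of the 24 extended transcripts do so. Of the 65 other transcripts, which end 0 to 18 bases past the stem-loop, 3 do. Of the members with an extended transcript 13 of 14 were tested and 1 rose (H4C8), with a median log2 fold change of 0.02. Of the 52 members with stem-loop transcripts only, 19 were tested and 1 rose (H2BC12), with a median of 0.21. All 11 genes without any count and all 26 with at most 3 counts in each library belong to the latter set, but so do H2BC12 and H1-2. The extended set held 34.6% and 34.4% of the family's counts in the untreated libraries and 32.5% and 33.4% in the hemin libraries. Whether the reads on stem-loop-only genes came from tailed RNA was not tested.

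For genes with 1 short and 1 long transcript, the mean length that RSEM gives shows how it divided the gene between them. The shares below are of transcripts, not of reads, and a longer transcript takes more reads per copy. For H3C10, with forms of 486 and 1250 bases, the long form took 69.7% and 96.3% untreated and 87.2% and 73.6% with hemin, so replicates differed as much as conditions. For H2BC4 (460 and 659 bases) it took 75.6% and 67.3% untreated and 77.7% and 75.8% with hemin, with the overlap limit given above. For H2BC5 (486 and 789 bases) it took 61.3% and 76.5%, then 61.6% and 48.8%. H3C6, with forms of 482 and 2679 bases, was assigned to the long form in full in both untreated libraries. With hemin the long form took 52.6% and 54.2% of its transcripts. Its counts were 11 to 21 per library, and the short form held a smaller part of the hemin counts than of the transcripts. These lengths move TPM without any move in counts, and on log2(TPM + 1) the value of H3C6 was 0.17 in place of -0.40. H4C8, with transcripts of 409, 1034 and 2163 bases, had mean lengths of 1413 and 1597 bases untreated and 1538 and 1593 with hemin, which overlapped.

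The genes lie in 4 groups on GRCh38, when members less than 500000 bases apart are joined. Chromosome 1 holds 11 members from 149782689 to 149887965, and chromosome 6 holds 34 from 25723397 to 26285638, 5 from 27125897 to 27147562 and 16 from 27807479 to 27893891. The group of 5, which holds H2BC12, had 4 tested genes with 1 call and a summed level of 584 and 587 TPM untreated and 688 and 707 TPM with hemin. The group of 34 had 15 tested genes with 1 call (H4C8) and stood at 491 TPM in each untreated library and at 501 and 480 TPM with hemin. The group of 11 and the group of 16 had 0 calls in 6 and 7 tested genes. Of 16 non-histone genes inside these groups 6 were tested, and TRIM38, a ubiquitin ligase gene, fell (-0.45, edgeR adjusted p = 0.0198).

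Within the groups many H2A and H2B genes stand head to head, so that the same short stretch is upstream of both. There were 13 head-to-head pairs of members within 1000 bases, 11 of them an H2A with an H2B gene, with gaps of 169 to 250 bases. H2BC17 was counted with both H2AC17 and H3C12, whose exons overlap by 346 bases on the same strand, so the pairs are not all separate. The gaps of the 2 pairs with the largest ratio of mean TPM between partners that were both read, and of the pair whose less-read partner had the most counts, are shown as the plus strand of GRCh38, 5′ to 3′. Capitals mark ATTTGCAT (the octamer bound by OCT1), TATAAA (the TATA box) and CCAAT (the CCAAT box) on either strand, and the overlap of TTTATA with TATAAA is merged.
H2BC12 and H2AC12, chr6:27146856-27147105: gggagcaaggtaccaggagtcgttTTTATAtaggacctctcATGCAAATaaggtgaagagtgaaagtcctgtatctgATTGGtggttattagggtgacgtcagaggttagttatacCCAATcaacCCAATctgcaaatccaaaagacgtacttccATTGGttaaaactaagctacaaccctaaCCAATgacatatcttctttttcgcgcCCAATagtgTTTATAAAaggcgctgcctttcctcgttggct
H2BC21 and H2AC20, chr1:149886683-149886917: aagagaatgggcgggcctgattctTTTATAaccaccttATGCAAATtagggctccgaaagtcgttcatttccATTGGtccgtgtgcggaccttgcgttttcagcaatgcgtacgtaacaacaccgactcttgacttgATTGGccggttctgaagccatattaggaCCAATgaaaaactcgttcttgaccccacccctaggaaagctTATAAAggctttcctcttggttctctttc
H2BC4 and H2AC6, chr6:26123927-26124144: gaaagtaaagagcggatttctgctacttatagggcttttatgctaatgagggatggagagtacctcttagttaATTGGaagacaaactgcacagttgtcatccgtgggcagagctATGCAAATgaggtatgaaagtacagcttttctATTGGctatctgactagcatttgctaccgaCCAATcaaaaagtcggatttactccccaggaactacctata

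Partners were read at levels from 1.53 to 528 times apart in the 12 pairs where both had counts, with a median ratio of mean TPM of 3.74. The ratio was above 10 in 4 pairs and at most 3 in 5. The 4 include H2AC7 and H2BC7 (16.5), where H2AC7 had 2.67 counts in untreated replicate 2 and none elsewhere. Of the exon bases of H2AC7 85.3% overlap ENSG00000282988 on the same strand, which had 41.7, 45.0, 51.1 and 60.5 counts. RSEM's posterior SD for H2AC7 was 1.54 to 3.27 counts. The division of reads between these genes is thus uncertain, and so is the ratio of this pair. The closest partners were H2AC17 and H2BC17, at 5.56 and 8.48 TPM, and H2BC11 and H2AC11, at 28.4 and 14.5 TPM. H2BC12 had a mean of 590 TPM over the 4 libraries, and H2AC12, which starts 250 bases away, had 1.12 TPM on 3.09, 2.07, 1.00 and 4.21 counts. H2BC21 stood at 17.4 TPM and H2AC20 at 0.828 TPM, with no count in 2 of the libraries. Between H2BC4 and H2AC6 the H2A gene was the higher, at 66.9 TPM against 15.8 TPM, with the overlap limit of H2BC4 given above. In the 10 H2A and H2B pairs with any count the H2B gene was higher in 7 and the H2A gene in 3. Both partners were tested in 5 pairs, and their log2 fold changes had the same sign in 2 and opposite signs in 3. The widest split was between H2AC15 (0.91), with the filter limit given above, and H2BC15 (-0.31), neither of which passed.

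**Figure D4:**
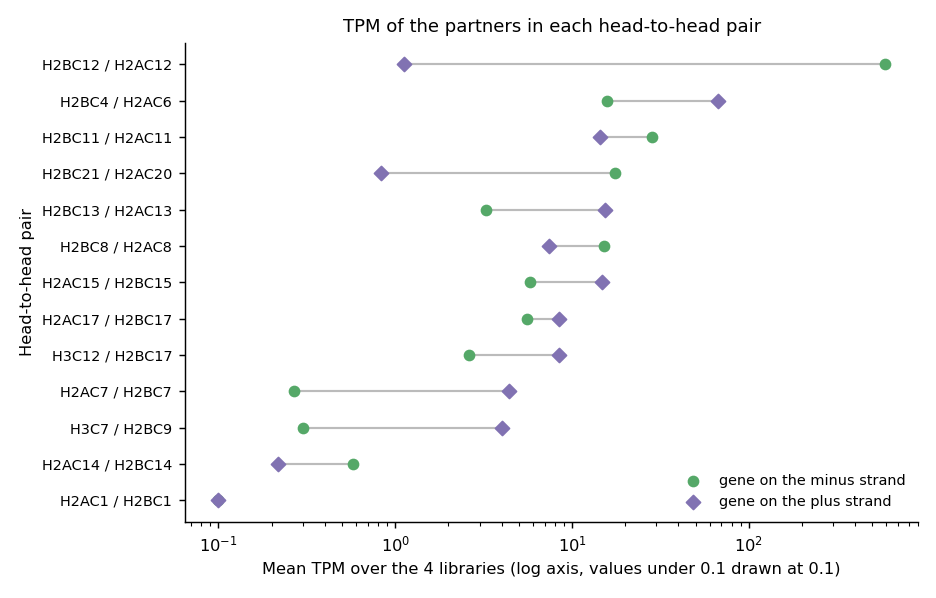
Mean TPM over the 4 libraries of the partners in the 13 head-to-head pairs on a log axis, with the gene on the minus strand as a green circle and the gene on the plus strand as a purple diamond. H2BC12 at 590 TPM faces H2AC12 at 1.12 TPM, and H2AC1 and H2BC1, listed at 0, are drawn at 0.1.

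In RefSeq's promoter table for GRCh38.p14, which gives 250 bases before to 50 after each start, 61 of the 66 members were found. ATTTGCAT, searched on both strands like the motifs below, was present in 42.6% of the members' promoters and in 1.8% of all 27305 promoters. It was held by 82.4% of the H2B and 73.3% of the H2A promoters, by 1 of 11 H3 promoters and by none of the 6 H1 and 12 H4 promoters. The H3 promoter is that listed for H3C4, whose window, chr6:26199244-26199543, is the same as that of H2AC7. H3C4 itself spans 26196784 to 26197286 on the minus strand, so this hit does not lie at its annotated start. TATAAA was present in 67.2% of the members' promoters against 12% of all, and CCAAT in 85.2% against 35.7%, with CCAAT in 25.0% of the H4 promoters. AAACACA, a motif known from H1 promoters, was in all 6 H1 promoters against 5.8% of all. Of the 11 gaps between an H2A and an H2B gene, 9 held ATTTGCAT, 8 held TATAAA and all held CCAAT on either strand.

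Near-identical copies limit what can be said of single members. In 16 of the 66 genes at least 50% of the 50-base stretches also occur in another gene, 9 of the 16 were tested, and 29 genes share none. H2AC18 and H2AC19 are the clearest case, since every 50-base stretch of H2AC18 is also in H2AC19. RSEM gave H2AC18 180, 154, 195 and 193 counts and H2AC19 0 in all 4 libraries, with a posterior SD of 50.3 to 54.7 counts for each, so the division between them is uncertain. Their sum had a log2 fold change of 0.21 (SE 0.105, edgeR adjusted p = 0.226). H4C14 had 86.6, 43.5, 60.7 and 76.7 counts and H4C15 had 37.5, 88.5, 61.3 and 68.3, with a posterior SD of 20.9 to 25.9 counts. Their sums of 124, 132, 122 and 145 counts were far closer to each other, and gave 0.05 (SE 0.124, edgeR adjusted p = 0.833). Every 50-base stretch of H3C15 is likewise in H3C14, 99.2% of those of H3C14 are in H3C15, and H3C14 is listed at 0. H2BC12 shares 57.2% of its stretches with another gene, mostly H2BS1, but H2BS1 is listed at 0 in all libraries and the posterior SD of the H2BC12 count was 4.83 to 5.14.

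A list called replication-independent histones here gave a comparison within the same libraries. Most of these are made outside S phase from polyadenylated messenger RNA, but the list also holds H2AX and H3-4, for which this was not checked. Of the 15 genes of this list 8 were tested, 0 rose and 1 fell, with a median log2 fold change of 0.14. Over all tested genes 7.00% rose and 7.14% fell. H1-10, a linker histone, fell from 768 and 781 counts to 593 and 611 (-0.37, SE 0.061, edgeR adjusted p = 0.00524). The genes of the replacement histone H3.3 had positive values short of the threshold, with H3-3A at 0.17 (edgeR adjusted p = 0.0877) and H3-3B at 0.18 (edgeR adjusted p = 0.0835). Without hemin replicate 2, 2 genes of this list rose. H2AZ1, an H2A variant, stood at 0.06 (edgeR adjusted p = 0.605). H3-3A alone, at 541 TPM untreated and 593 TPM with hemin, was on the scale of H2BC12.

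Of 30 genes that make, process or degrade histone messenger RNA, 29 were tested, 6 rose and 3 fell, which is 20.7% and 10.3% against 7.00% and 7.14% of all tested genes, with a median of 0.05. SLBP, which binds the stem-loop, rose from 372 and 336 counts to 409 and 461 (0.29, SE 0.071, edgeR adjusted p = 0.0265), but its edgeR adjusted p passed 0.05 in some alternatives, up to 0.219. SRRT (0.34), which links the RNA cap to 3′ end formation, and CSTF2 (0.43), a cleavage factor, also rose, as did the cap-binding NCBP1 (0.28), while its partner NCBP2 fell (-0.29). ERI1, the exonuclease that trims histone stem-loops, fell (-0.31, edgeR adjusted p = 0.0297). NPAT, the cyclin E target that switches on histone transcription, had 355, 301, 329 and 395 counts and a value of 0.13 (edgeR adjusted p = 0.353), and CCNE2, a cyclin E, was lowest at -0.52 without passing (edgeR adjusted p = 0.237). RNU7-1, the U7 RNA, is listed at 0, but it carries no poly(A) tail, so these libraries do not give its level. Without untreated replicate 2 the list had 1 rise and 0 falls.

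Of 27 genes for histone chaperones and import, all of which were tested, 9 rose (33.3% against the same 7.00%) and 0 fell, with a median of 0.15. IPO4, an importin for H3 and H4, had the largest rise (0.44), and SUPT6H (0.30), SUPT16H (0.25) and RBBP4 (0.22) also passed. HJURP, the chaperone of the centromeric H3, was lowest at -0.10. Of 30 genes of S phase and DNA replication 17 rose and 0 fell, which is 56.7% against 7.00% of all tested genes, with a median of 0.22. MCM5, a subunit of the replicative helicase, rose from 959 and 839 counts to 1402 and 1558 (0.71, SE 0.052, edgeR adjusted p = 1.2e-04). MCM7 (0.37), MCM4 (0.33) and CDT1 (0.25) rose as well, and E2F1 was lowest at -0.06. The count for the S phase list was 7 without untreated replicate 1 and 9 without untreated replicate 2, and that for the chaperones 5 without either. These shares stood beside a rise in 6.25% of the tested replication-dependent histone genes in the same fit, whose median was 0.12. The shares differ in precision, since only 4 of the 32 tested histone genes had an SE of up to 0.1. In the 15 with a mean of 10 TPM or less the SE was at least 0.338, so a change of 0.22 could not pass there. The part of the cell cycle in either was not tested.

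A list of RNAs that carry no poly(A) tail was read in the same libraries, and 16 of its 25 entries had at most 3 counts in each. Of 25 such entries, 6 were tested and 0 passed in either direction in edgeR's test, while 1 had an unadjusted p under 0.05 and was lower. RN7SL2, the RNA of the signal recognition particle, had the lowest value (-0.59, edgeR adjusted p = 0.0552), and RMRP, an RNA of a ribonuclease, the highest (0.26, edgeR adjusted p = 0.383). The list summed to 601 and 591 TPM untreated and to 621 and 451 TPM with hemin, so its groups overlapped while the histone sums of 1295 and 1302 TPM untreated and 1435 and 1419 TPM with hemin did not. RN7SL1 gave the largest part of the list's sum, at 294 and 274 TPM untreated and 299 and 223 TPM with hemin. The list thus rests on few RNAs and cannot give the part of untailed RNA in the histone values, which was not tested.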

How the data were processed

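RNA-seq of poly(A) RNA was analysed from 2 untreated and 2 hemin-treated K562 libraries. The authors trimmed the reads with Trimmomatic 0.39 and quantified them with RSEM 1.3.1 against the Ensembl 106 annotation. Expected counts were deposited without normalization, with reads shared by several genes divided among them, and the deposited posterior mean counts and posterior SD describe that division. The authors' TPM were scaled by effective length. Gene names came from the series tables, all of whose value columns were left out.

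Counts were rounded, filtered by filterByExpr and scaled by TMM (CPM), and hemin was compared with untreated by the quasi-likelihood test of edgeR 4.0.16 in R 4.3.3 with Benjamini-Hochberg adjustment. The common dispersion was 0.001179. Of the gene IDs 99.84% and of the members all 66 were found in GENCODE 44, which gave positions and transcripts, all 89 member transcripts included. The alternatives comprised DESeq2 1.42.0, RLE factors, scaling by library size only, no filter, a strict filter (20 or more counts in both libraries of either condition), a replicate block, each library left out, posterior mean counts and limma 3.58.1 on log2(TPM + 1) and log2(TPM + 0.1). The sum of near-identical members was added after the values were seen. The scripts were tested on simulated data.

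The members and lists were chosen with earlier results of these data known. Named by rule were members past the threshold, the 10 of highest mean TPM, the highest TPM and the extremes of log2 fold change in each class, the 3 largest relative posterior SDs, and in each list up to 4 called genes by p and the extremes. SLBP, RNU7-1, NPAT, H2AZ1, H3-3A and H3-3B were always named, and a further gene of that rule is not reported here. Other genes, the printed stem-loops and the pairs were chosen after their values were seen.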

Additional observations from a re-analysis of the deposited data

How the results depend on the processing

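H2BC12 and H4C8 passed upward under every alternative by edgeR and DESeq2, each library left out included, and under neither limma setting on the TPM scale, where 0 members passed. The members called higher numbered 3 with no count filter (55 members tested), the strict filter (21 tested) and posterior mean counts, the added gene being H4C5. The count of members called lower was 0 throughout. Summing near-identical members left 2 higher. The median log2 fold change of the tested members ran from 0.08 to 0.19.

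Over all genes, DESeq2 called 589 higher and 505 lower, and limma called 14 and 33 on log2(TPM + 1) and 15 and 34 on log2(TPM + 0.1). With no filter, 1464 were higher and 1321 lower of 32438. With each library left out the counts ran from 469 to 934 higher and from 512 to 884 lower, the lowest being without untreated replicate 1. For the replication-independent histones, 1 gene was higher with RLE factors, 3 with no filter, 2 with the strict filter, 3 with posterior mean counts and 0 to 2 with each library left out, and under limma 0 were lower. For the processing genes DESeq2 gave 2 higher and 0 lower, limma 0 and 0, and leaving out each library 1 to 5 higher and 0 to 1 lower. For the chaperones limma gave 0 higher, and leaving out each library 5 to 9. For the S phase genes DESeq2 gave 11 higher, limma 1 on either scale, and leaving out each library 7 to 13. For RNAs without a poly(A) tail 1 was lower with library size only, with no filter, with the strict filter, with the replicate block and with posterior mean counts, and 0 to 1 with each library left out. For non-histone genes inside the clusters 0 were lower by DESeq2 and by limma, and 0 to 1 with each library left out. The causes were not tested.

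The summed H2A level, hemin over untreated, was 1.10 in TPM against 1.18 in CPM. Leaving out each library gave 1.08 to 1.12 for all members, 0.944 to 1.03 for H1, 1.16 to 1.19 for H2A, 1.13 to 1.16 for H2B, 0.843 to 0.918 for H3 and 1.21 to 1.28 for H4.

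Some log2 fold changes that did not pass turned direction. That of H2AC6 was -0.046 on log2(TPM + 1) and -0.047 on log2(TPM + 0.1), that of H3C6 was 0.17 on log2(TPM + 1) and 0.29 on log2(TPM + 0.1), and that of H4C15 was -0.02 with library size only and -0.045 with posterior mean counts. With each library left out the value ran from -0.10 to 0.044 for H1-2, from -0.33 to 0.46 for H1-3, from -0.20 to 0.078 for H2BC11, from -0.052 to 0.21 for H2BC21, from -0.37 to 0.037 for H2BC5, from -0.004 to 0.41 for H3C15, from -0.74 to 0.031 for H3C6, from -0.30 to 0.63 for H4C14, from -0.51 to 0.83 for H4C15, from -0.17 to 0.13 for H4C3, from -0.028 to 0.15 for H2AZ1 and from -0.21 to 0.076 for E2F1.

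Same-numbered libraries did not deviate together across all genes (r = 0.0047), which gives no sign that the numbers pair libraries. The check cannot exclude a batch shared by a part of the genes. With the replicate number as a block, 2 members were higher and 0 lower, and 855 genes were higher and 886 lower over all. Leaving out a library leaves 1 on that side, which is assumed to vary like the others. Depth limits most members: 34 of 66 were too thinly read to test, and the SE was at least 0.338 in the 15 tested genes with a mean of 10 TPM or less.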
